A study of Drosophila melanogaster with 2 samples.

Results

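Displaced promoter summits are peak summits of Bgb-eGFP ChIP-seq that lay more than 100 bp and at most 1000 bp from the nearest annotated transcription start site (TSS). They were chosen by position alone, from the conservative list of 4488 peaks, which is thresholded on the irreproducible discovery rate (IDR) between replicates. The summit of each peak was set against the 5′ ends of all transcripts of Ensembl BDGP6, with transposable elements left out. The rule gave 931 displaced summits, 611 upstream and 320 downstream of the TSS by its strand. Another 3035 summits lay within 100 bp of a TSS and are called TSS-proximal, and 522 lay farther than 1000 bp from any TSS.

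The assay was chromatin immunoprecipitation with sequencing of Drosophila melanogaster embryos aged 0 to 24 h, used whole, in 2 biological replicates of 1 group. The strain, named Bgb-GFP, expressed a fusion of Bgb with enhanced green fluorescent protein (eGFP), and the free text of the labels names an anti-GFP antibody while their antibody entry names Bgb. There was no second condition, no control library was analysed here, and the embryos pool all cell types of these stages. Read depth is unknown from the peak lists, so intervals and tests over peaks cover the counting of peaks only.

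Bgb (Big brother) is the fly counterpart of CBF-beta, which binds no DNA itself and joins Runt domain proteins on their sites. A promoter in the fly carries its core motifs within a short stretch around the TSS, and housekeeping promoters often hold the DNA replication-related element (DRE), bound by DREF, whose core CGATA is also bound by the insulator protein BEAF-32. Sequence farther out can hold enhancers, insulator sites, unannotated start sites or the promoter of a neighbouring gene. The CGATAR motif, with R standing for A or G, is called the DRE core here.

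The strongest displaced summits differed in sequence, and 10 windows reaching 50 bp to either side of the summit show the range, the 5 strongest on each side that could be printed. Each is from the RefSeq copy of the Release 6 (dm6) genome, 5′ to 3′ on the strand of the nearest TSS, with every match to CGATAR on either strand in capitals. Upstream of the TSS are bun (chr2L:12546713-12546813, minus strand), Nrg (chrX:8517186-8517286, plus strand), milt (chr2L:7049096-7049196, plus strand), rut (chrX:14826133-14826233, minus strand) and Jwa (chr2L:18705772-18705872, minus strand). Downstream are snRNA:7SKa (chr3R:7474771-7474871, minus strand), zf30C (chr2L:9759050-9759150, plus strand), woc (chr3R:27263465-27263565, minus strand), stwl (chr3L:14409482-14409582, minus strand) and lncRNA:CR43838 (chrX:20760662-20760762, minus strand). Windows that overlapped an annotated UTR were not printed. Some windows whose summit lay outside any UTR were left out too, among them those of Sox14 upstream and Adf1 downstream. The printed windows are therefore not the strongest of all on each side, nor the strongest outside UTRs.
bun: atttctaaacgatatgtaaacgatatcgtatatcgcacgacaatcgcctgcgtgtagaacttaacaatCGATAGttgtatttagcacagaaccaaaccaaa
Nrg: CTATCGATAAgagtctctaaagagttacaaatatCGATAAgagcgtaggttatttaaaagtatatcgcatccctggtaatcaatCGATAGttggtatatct
milt: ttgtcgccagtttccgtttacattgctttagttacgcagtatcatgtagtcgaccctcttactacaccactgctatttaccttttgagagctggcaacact
rut: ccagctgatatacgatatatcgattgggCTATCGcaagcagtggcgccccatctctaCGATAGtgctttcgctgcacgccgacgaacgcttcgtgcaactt
Jwa: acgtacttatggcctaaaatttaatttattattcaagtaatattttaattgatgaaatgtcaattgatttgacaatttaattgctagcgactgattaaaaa
snRNA:7SKa: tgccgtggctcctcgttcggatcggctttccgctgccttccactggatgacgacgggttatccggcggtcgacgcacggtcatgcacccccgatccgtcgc
zf30C: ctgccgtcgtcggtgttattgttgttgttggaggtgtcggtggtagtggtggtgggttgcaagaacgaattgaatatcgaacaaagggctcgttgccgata
woc: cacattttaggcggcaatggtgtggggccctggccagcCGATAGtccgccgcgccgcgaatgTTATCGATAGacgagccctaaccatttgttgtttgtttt
stwl: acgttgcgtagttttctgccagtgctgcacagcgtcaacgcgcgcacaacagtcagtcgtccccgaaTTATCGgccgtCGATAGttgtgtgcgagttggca
lncRNA:CR43838: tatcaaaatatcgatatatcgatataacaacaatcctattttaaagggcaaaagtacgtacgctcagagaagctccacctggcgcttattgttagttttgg
Nrg held 4 matches to the DRE core, woc 3, rut and stwl 2 each and bun 1, some of them overlapping on opposite strands. The other 5 windows held 0. That of lncRNA:CR43838 still held the full DRE, TATCGATA, which CGATAR misses where A or G follows on neither strand. Base composition also spanned a wide range, with a GC share of 22.8% at Jwa and 66.3% at snRNA:7SKa.

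Displaced summits made up 23.5% of the 3966 summits within 1000 bp of a TSS (95% exact interval 22.2 to 24.8%). Sequence farther than 100 bp makes up 86.1% of all bases within 1000 bp of a TSS, and 84.7% of the 27969 promoter summits in the series' ranked list with an IDR above 5% were displaced. The median displaced summit lay 214 bp from its TSS, with quartiles of 137 and 500.5 bp. Counts per Mb of sequence at the same distance fell steeply across the limit of the rule. Upstream there were 1300 summits per Mb at 26 to 50 bp, 454 at 76 to 100 bp, 214 beyond 100 and up to 150 bp (written 100 to 150 bp from here on), 40.96 at 201 to 500 bp and 26.2 at 501 to 1000 bp. Downstream there were 576 per Mb at 26 to 50 bp, 165 at 76 to 100 bp, 76.2 at 100 to 150 bp, 15.4 at 201 to 500 bp and 11.2 at 501 to 1000 bp. Most of the fall came within the first 300 bp, beyond which the bins of 100 bp held between 14.7 and 39.1 per Mb upstream and between 9.01 and 12.9 downstream.

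**Figure D1:**
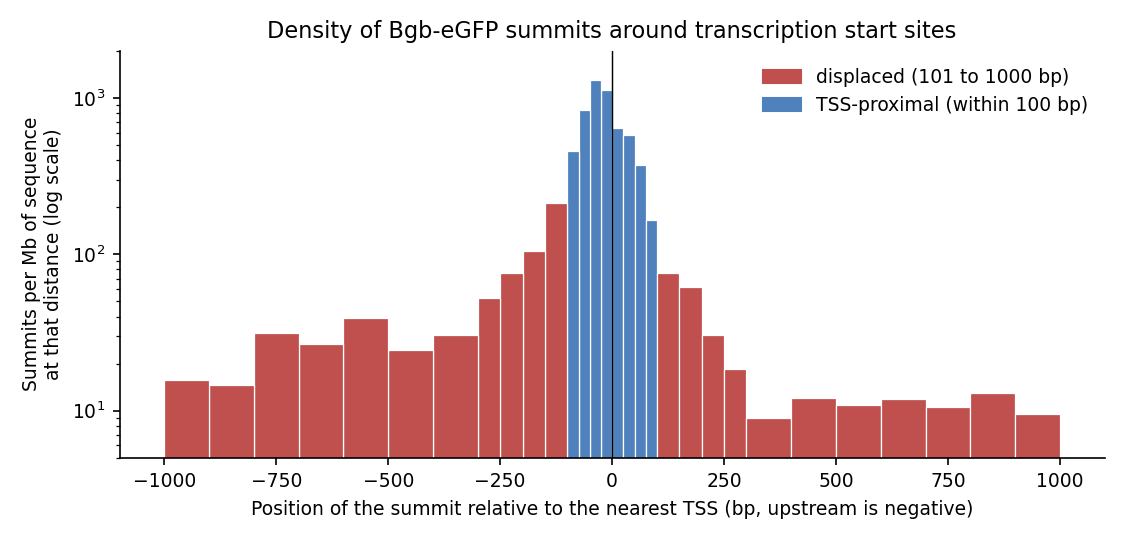
Summits of the conservative list per Mb of sequence (log scale) against their position relative to the nearest TSS in bp, upstream negative, with displaced summits in red and TSS-proximal ones in blue. Density was 214 per Mb at 100 to 150 bp upstream and 76.2 at the same distance downstream, and beyond 300 bp it was at most 39.1 upstream and 12.9 downstream.

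Values changed little across the limit of 100 bp. The 71 summits just outside the limit, in the first 10 bp beyond it, had a median signal of 144 and the DRE core in 23.9%, and the 95 summits in the last 10 bp inside it had a median of 127 and the core in 21.1%. At the outer limit, 2 summits lay in the last 10 bp inside it and 0 in the first 10 bp beyond it.

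Upstream summits were 65.6% of the displaced class (611 of 931, 95% exact interval 62.5 to 68.7%), while upstream sequence was 42.2% of the bases at these distances. The share was 67.1% at 100 to 200 bp, 66.9% at 201 to 500 bp and 61.4% at 501 to 1000 bp, so the side was much the same over the whole range. Of 23672 displaced summits in the ranked list with an IDR above 5%, 34.5% were upstream. TSS-proximal summits had an upstream share of 67.1%, of 3019 with a side. With only the 5′ end of each gene as a TSS, the upstream share of displaced summits was 53.3%.

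Displaced summits were weaker than TSS-proximal ones. Their signal, the authors' own value per peak with no stated unit, had a median of 113 (quartiles 77.4 and 182), and TSS-proximal summits had a median of 170 (quartiles 107 and 309). Signals above the median of the conservative list were found at 33.8% of displaced and 57.8% of TSS-proximal summits (two-sided Fisher's exact test, p = 7.61e-38). Upstream displaced summits had a median of 131 and downstream ones a median of 87.8. TSS-proximal summits differed by side in the same direction, with medians of 213 upstream and 125 downstream. With promoter summits put into 4 groups at the signal quartiles of all 4488 conservative peaks, the displaced share was 39.4% in the weakest, then 26.0% and 19.5%, and 11.2% in the strongest. The upstream share of displaced summits over the same groups was 50.1%, 64.7%, 81.03% and 89.2%.

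**Figure D2:**
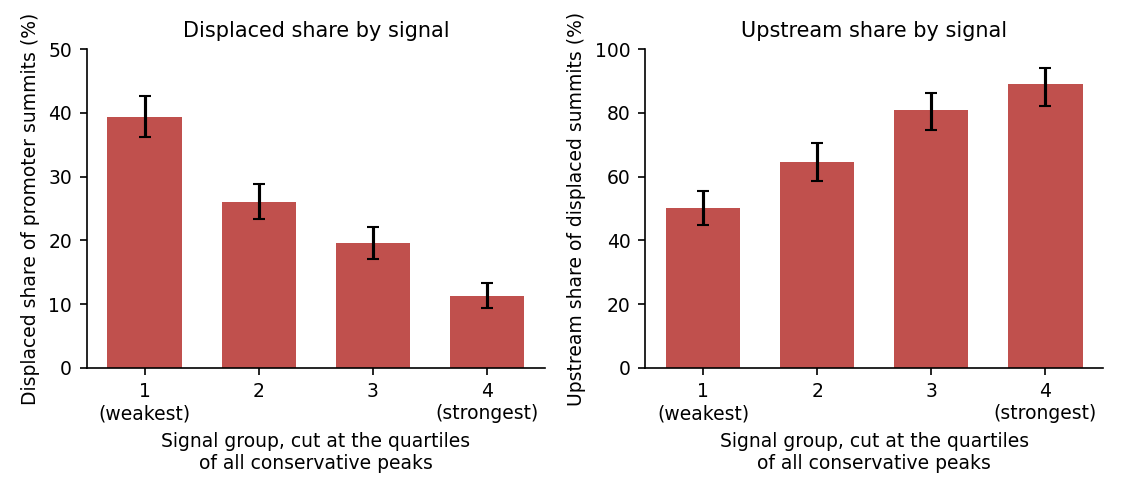
Displaced share of promoter summits (left) and upstream share of displaced summits (right), in percent, for the 3966 promoter summits in 4 groups cut at the signal quartiles of all 4488 conservative peaks, with 95% exact intervals as error bars. The displaced share was 39.4% in the weakest group and 11.2% in the strongest, and the upstream share was 50.1% in the weakest and 89.2% in the strongest.

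The thresholded list of replicate 1 alone held a peak at 84.3% of displaced and 94.5% of TSS-proximal summits (two-sided Fisher's exact test, p = 6.61e-21), where all conservative peaks gave 90.8%. The list of replicate 2 alone, which is shorter with 3200 peaks against 6061 in replicate 1, held 58.8% of displaced and 72.6% of TSS-proximal summits (p = 3.37e-15, same exact test), where all conservative peaks gave 67.8%. Among peaks below the median signal the list of replicate 2 held 39.8% of displaced and 40.5% of TSS-proximal summits (exact p = 0.764), and among those above it 95.9% of displaced and 96.1% of TSS-proximal summits (exact p = 0.875). The list of replicate 1 held 76.6% of displaced and 87.4% of TSS-proximal summits below the median (exact p = 4.97e-09), and 99.4% of displaced and 99.7% of TSS-proximal summits above it (exact p = 0.350). Neither list held 11.1% of displaced and 3.92% of TSS-proximal summits.

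The position of a displaced summit was read again from the unthresholded ranked list of each replicate, by the overlapping peak with the nearest summit. Of 922 displaced summits found in both lists, 665 (72.1%) were displaced in both, and 64 (6.94%) were within 100 bp of a TSS in both. By side, 76.7% of upstream and 63.3% of downstream ones were displaced in both. Of 3016 TSS-proximal summits found in both lists, 2764 (91.6%) were within 100 bp of a TSS in both. Taking the nearest replicate summit favours agreement in each class. Both replicates gave the displaced class at 43.8% of the summits 100 to 150 bp from the TSS and 91.6% of those over 200 bp. The limit of 100 bp partly fixes this difference, because a small shift carries a summit near it across. In distance, the replicate summits lay a median of 38 bp apart at 100 to 150 bp and 26 bp apart over 200 bp. The summits of the replicates lay a median of 32 bp apart for the displaced and 19 bp apart for the TSS-proximal class. Replicate 1 had the higher signal at 89.6% of displaced and 93.5% of TSS-proximal summits, on a scale that the authors do not relate between libraries.

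**Figure D3:**
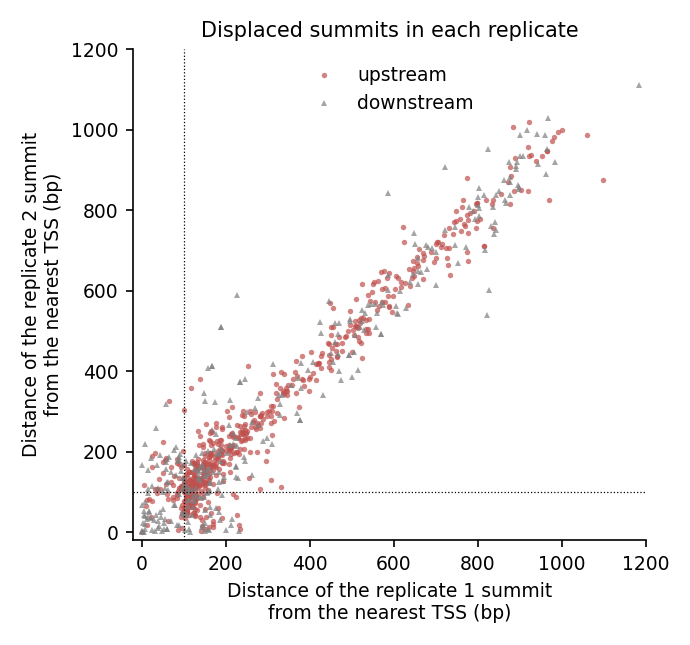
Distance from the nearest TSS in bp of the replicate 1 summit (horizontal) and the replicate 2 summit (vertical) for the 922 displaced summits found in both ranked lists, upstream as circles and downstream as triangles, with dotted lines at 100 bp. Points beyond 200 bp follow the diagonal, while many near the dotted lines are displaced in 1 replicate only.

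A TSS-proximal peak at the same TSS accompanied 180 displaced summits (19.3%), 13.7% of the upstream and 30% of the downstream ones. The summit of some TSS-proximal peak lay within 300 bp of 126 displaced summits. These 126 had a median signal of 33.8, their TSS-proximal neighbours had a median of 111, and the neighbour was stronger at 92 of them. At 67 of the 124 with a peak in both replicates, the signal of the conservative peak was below that of the matched peak in each replicate, as at 8.68% of all displaced and 1.26% of TSS-proximal summits. Whether the replicate peak matched to such a summit is the neighbouring one was not tested. The 129 displaced summits with a TSS-proximal summit between 300 and 1000 bp away had a median signal of 108, and 48.1% of them were upstream. The remaining 676, whose nearest TSS-proximal summit lay beyond 1000 bp, had a median signal of 121, and 71.9% of them were upstream.

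Of the 931 displaced summits, 403 were intergenic, 265 intronic, 128 in a 5′ UTR, 78 in a coding exon, 30 in another exon and 27 in a 3′ UTR. A coding exon held 8.38% of displaced, 0.527% of TSS-proximal and 2.45% of all conservative summits, and an intron held 28.5% of displaced, 8.53% of TSS-proximal and 17.1% of all. The distance rule partly fixes these differences, because distance from a TSS limits which part of a gene a summit can lie in. Upstream summits were mainly intergenic (392) or in an intron (161), and downstream ones lay in a 5′ UTR (110), an intron (104) or a coding exon (72). A gene body held 56.7% of displaced and 47.6% of TSS-proximal summits (two-sided Fisher's exact test, p = 1.32e-06), but this difference was lost on either side of the median signal, at 40% of displaced and 36.5% of TSS-proximal summits above it (exact p = 0.254) and 65.3% of displaced and 62.9% of TSS-proximal summits below it (exact p = 0.333). By side of the TSS, untested, a gene body held 35.8% of displaced and 21.8% of TSS-proximal summits upstream. Downstream it held 96.6% of displaced and 99.5% of TSS-proximal summits, where the position nearly fixes the share. The nearest gene had more than 1 annotated TSS at 47.5% of displaced and 37.3% of TSS-proximal summits (p = 3.34e-08, same exact test). A protein-coding gene was nearest at 92.6% of displaced and 93.2% of TSS-proximal summits (exact p = 0.506), although the list of replicate 1 alone gave 90.2% for displaced and 94.0% for TSS-proximal summits (exact p = 1.86e-06). Genes of tRNAs, which RNA polymerase III transcribes, were nearest to 6 displaced and 135 TSS-proximal summits. A TSS of the opposite strand lay within 1000 bp on the far side of 27.3% of upstream displaced and 52.5% of upstream TSS-proximal summits, a comparison that the rule partly fixes, because no TSS at all can lie within 100 bp of a displaced summit. By chromosome arm the displaced share of promoter summits was between 20.5% on X and 26.3% on the fourth chromosome, where it rests on 5 of 19.

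Of the 12 motifs searched, the DRE core set the classes apart most. It lay within 50 bp of 18.0% of displaced summits (168 of 931, 95% exact interval 15.6 to 20.7%) and 48.4% of TSS-proximal summits (1469 of 3035, 46.6 to 50.2%; two-sided Fisher's exact test, Benjamini-Hochberg adjusted p = 1.58e-64 over 12 motifs). All 4488 conservative peaks gave 38.1%, and windows of the same length on 23694 annotated TSS positions gave 15.1%. Those windows are centred on start sites, so for this and the other motifs they are no background for sequence at the distances of displaced summits. The difference between the classes held among peaks above the median signal (28.6% of displaced and 64.4% of TSS-proximal summits, exact, adjusted p = 3.07e-31) and below it (12.7% of displaced and 26.5% of TSS-proximal summits, exact, adjusted p = 2.45e-11). Each quartile of signal showed the same direction, untested, with the core at 10.8%, 15.3%, 21.0% and 40.8% of displaced summits and at 20.3%, 31.3%, 51.2% and 75.5% of TSS-proximal summits over the quartiles from weakest to strongest. Displaced summits with the core had a median signal of 164 and those without it a median of 107. Where it was present at a displaced summit, the nearest match lay a median of 16.5 bp from the summit position, against 15 bp in the TSS-proximal class.

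Upstream and downstream displaced summits differed in the DRE core. It was at 23.1% of upstream and 8.44% of downstream ones (two-sided Fisher's exact test, adjusted p = 1.26e-07 over 12 motifs), a test added after the values were seen. TSS-proximal summits had the same direction, untested, with the core at 61.4% of upstream and 22.1% of downstream ones. Along the upstream side of the displaced class the share was 19.3% at 100 to 150 bp, 14.4% at 151 to 200 bp, 34.4% at 201 to 250 bp and 53.1% at 401 to 500 bp, where it rests on 17 of 32 summits. It was 35.2% over 201 to 500 bp (62 of 176) and 18.9% over 501 to 1000 bp (27 of 143). The downstream side was at 7.69% over 100 to 200 bp, 9.20% over 201 to 500 bp and 8.89% over 501 to 1000 bp. In the finer bins downstream it was 5% at 100 to 150 bp (4 of 80), 11.1% at 151 to 200 bp (7 of 63), 3.33% at 201 to 250 bp (1 of 30), 0 of 18 at 251 to 300 bp, 23.5% at 300 to 400 bp (4 of 17) and 13.6% at 401 to 500 bp (3 of 22). Beyond 100 bp, the highest bin thus lay at 401 to 500 bp upstream and at 300 to 400 bp downstream, on few summits each. These distance bins were described after their values were seen and were not tested.

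**Figure D4:**
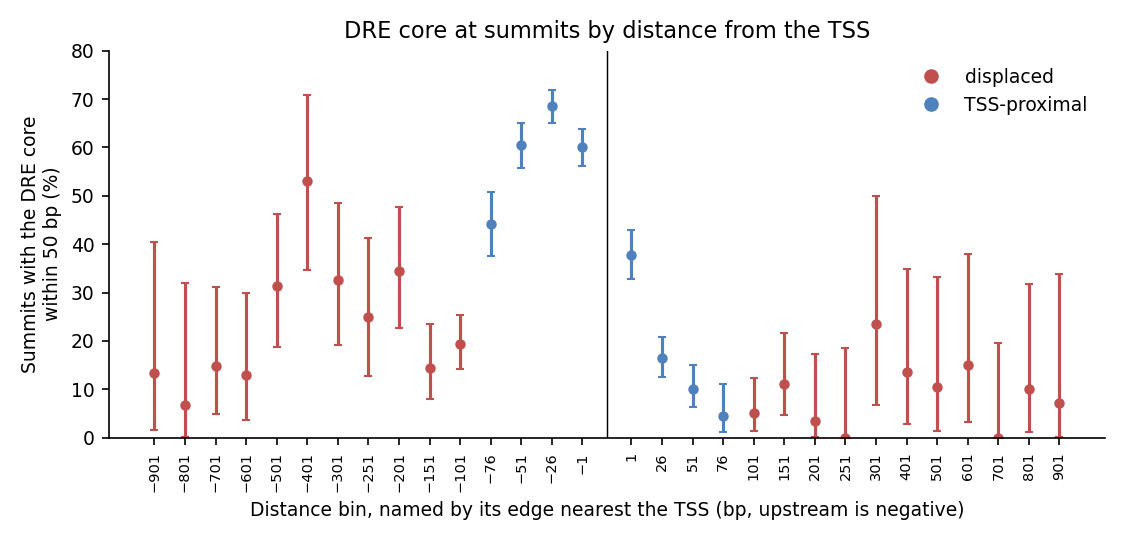
Share of summits with the DRE core within 50 bp, in percent with 95% exact intervals, by distance bin from the TSS (named by the bin's edge nearest the TSS, upstream negative), displaced in red and TSS-proximal in blue. The upstream side shows 53.1% at 401 to 500 bp, 19.3% at 100 to 150 bp and 68.6% at 26 to 50 bp.

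The same promoters were then read at 3 positions. Around the displaced summit 18.0% held the DRE core, around the nearest TSS 18.7% did, and at the point as far from the TSS on its other side 5.37% did. Upstream summits gave 23.1% at the summit, 18.0% at the TSS and 4.09% at the mirrored point. Downstream summits gave 8.44% at the summit, 20% at the TSS and 7.81% at the mirrored point, so there the summit was near the level of its mirrored point and the TSS was above both. The core was at both the summit and the TSS in 31 of 931. A full count of matches in steps of 50 bp had its maximum at the summit for upstream displaced summits, with 18.2 matches per 100 summits just upstream of it, against 41.2 for TSS-proximal ones. The maximum for TSS-proximal summits was 44.4, in the step from 0 to 49 bp. Around downstream displaced summits the value just upstream of the summit was 5.31. Their maximum was 14.1, in the step from -250 to -201 bp, which lies towards the TSS.

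**Figure D5:**
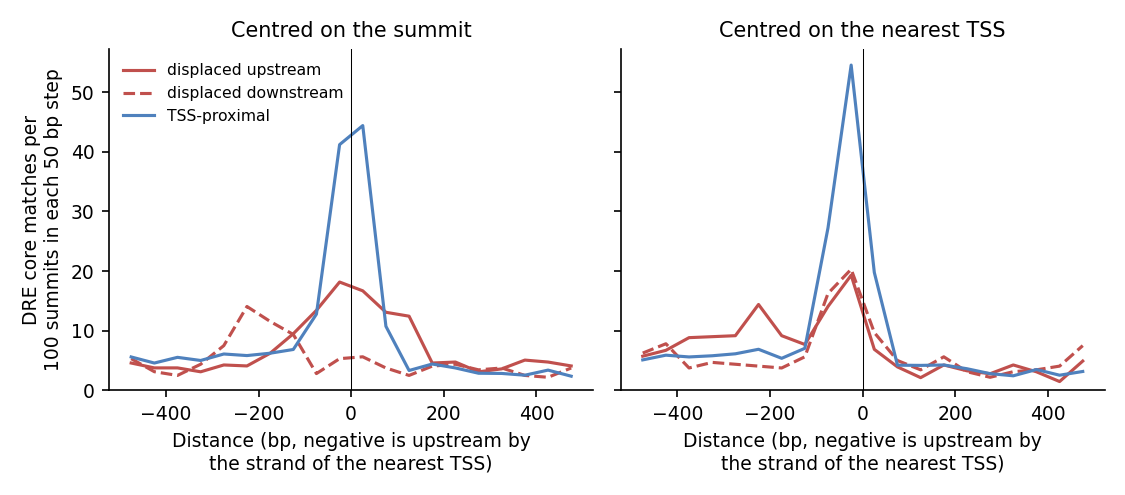
DRE core matches per 100 summits in steps of 50 bp, centred on the summit (left) and on the nearest TSS (right), for upstream displaced (red, solid), downstream displaced (red, dashed) and TSS-proximal (blue) summits, with distance in bp and upstream negative. Just upstream of the summit the value was 18.2 for upstream displaced, 5.31 for downstream displaced and 41.2 for TSS-proximal summits.

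Of the 12 motifs, 6 (50%) differed between the classes, 2 of them higher at displaced summits. The full DRE, TATCGATA, was at 5.91% of displaced and 20.2% of TSS-proximal summits (Fisher's exact test, adjusted p = 1.14e-27, with 3.75% of all TSS positions). GGTCACAC, part of the core promoter element bound by M1BP, was at 1.504% of displaced and 5.83% of TSS-proximal summits (exact, adjusted p = 1.01e-08, 3.88% of all TSS positions). CAGCTG, an E-box of basic helix-loop-helix proteins, was at 5.26% of displaced and 10.05% of TSS-proximal summits (exact, adjusted p = 9.68e-06, 7.80% of all TSS positions). Higher at displaced summits was GAGAG, the repeat bound by GAGA factor, at 17.4% of displaced and 11.4% of TSS-proximal summits (exact, adjusted p = 9.68e-06, 12.5% of all TSS positions). By side, untested, the difference was upstream only, with GAGAG at 17.3% of displaced and 8.44% of TSS-proximal summits. Downstream it was at 17.5% of either class. TATAAA, the TATA box of some core promoters, was at 11.9% of displaced and 7.71% of TSS-proximal summits (exact, adjusted p = 0.00022, 14.97% of all TSS positions), but in the list of replicate 1 alone it was at 8.67% of displaced and 8.07% of TSS-proximal summits (exact, adjusted p = 0.472). By side, untested, TATAAA was at 14.7% of displaced and 7.85% of TSS-proximal summits upstream. Downstream it was at 6.56% of displaced and 7.35% of TSS-proximal summits. All motifs were searched on both strands, and the DRE core and TATCGATA overlap where a DRE is followed by A or G on either strand.

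The Runt domain motif, RACCRCA, was at 3.87% of displaced and 5.30% of TSS-proximal summits (exact, adjusted p = 0.145), with 4.85% of all TSS positions. In the list of replicate 1 alone it was at 3.61% of displaced and 5.55% of TSS-proximal summits (exact, adjusted p = 0.00645). The remaining motifs did not pass an adjusted p of 0.05 either. The Zelda-type CAGGTAG was at 0.537% of displaced and 0.297% of TSS-proximal summits, and CATATG was at 2.26% of displaced and 1.48% of TSS-proximal summits. In the list of replicate 2 alone CATATG was at 3.22% of displaced and 1.44% of TSS-proximal summits (exact, adjusted p = 0.0105). CACGTG was at 1.61% of displaced and 1.55% of TSS-proximal summits, and the AP-1-type TGANTCA at 1.504% of displaced and 1.85% of TSS-proximal summits. The GATA-type WGATAA, with W standing for A or T, was at 9.34% of displaced and 7.78% of TSS-proximal summits.

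The sides also differed in 4 motifs beside the DRE core, tested after the values were seen. TATCGATA was at 8.18% of upstream and 1.56% of downstream displaced summits, GGTCACAC at 2.29% of upstream and 0 of 320 downstream ones (which allows up to 1.15% at the 95% level of an exact interval), TATAAA at 14.7% of upstream and 6.56% of downstream ones, and CATATG at 3.27% of upstream and 0.313% of downstream ones (two-sided Fisher's exact tests, adjusted p between 8.24e-05 and 0.00832). GAGAG was at 17.3% of upstream and 17.5% of downstream summits (exact, adjusted p = 1). The GC share of the window had a median of 43.6% at displaced and 44.6% at TSS-proximal summits, with 40.6% upstream and 49.5% downstream within the displaced class. Within the TSS-proximal class the GC medians were 43.6% upstream and 47.5% downstream. Of the 4 motifs, untested there, TATCGATA was at 26.2% of upstream and 7.85% of downstream TSS-proximal summits. GGTCACAC was at 6.76% and 3.83% of them, TATAAA at 7.85% and 7.35%, and CATATG at 1.63% and 1.01%.

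Without a list of motifs, 2080 joined 6-mers (each counted with its reverse complement) were compared in the same windows. At displaced summits 127 (6.11%) occurred more often and 108 (5.19%) occurred less often, with an adjusted p below 0.05 (Fisher's exact test). In the list of replicate 2 alone 74 were more frequent, and in that of replicate 1 alone 197 were. The less frequent ones were led by TATCGA at 14.9% of displaced and 44.9% of TSS-proximal summits, ATCGAT at 12.6% of displaced and 40.1% of TSS-proximal summits, and CGATAG at 12.5% of displaced and 36.4% of TSS-proximal summits, all of which overlap the DRE or its core. The more frequent ones were led by TCTACA at 7.84% of displaced and 3.06% of TSS-proximal summits, ATGTAA at 12.5% of displaced and 6.33% of TSS-proximal summits, and AGGAGC at 5.05% of displaced and 1.58% of TSS-proximal summits. The differences of the leading less frequent 6-mers were several times larger than those of the leading more frequent ones.

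The 931 displaced summits had 868 nearest genes, and the 10 strongest on each side are given here. The strongest upstream summit lay 152 bp from a TSS of bun (bunched, a TSC-22 type leucine zipper protein), with a conservative signal of 1282 and 801 and 499 in replicates 1 and 2. Sox14, an HMG-box factor induced by ecdysone, had a summit 251 bp upstream with 1261 (757 and 509). Nrg (Neuroglian, an L1-type cell adhesion molecule) had one at 137 bp with 1109 (731 and 379). These 3 lay far above the upper quartile of the TSS-proximal summits, so a summit away from the TSS was not always weak.

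The next were milt (Milton, which links mitochondria to kinesin) at 126 bp with 869, inc (insomniac, a Cullin-3 adaptor needed for sleep) at 106 bp with 804, and rut (rutabaga, the adenylyl cyclase of olfactory learning) at 110 bp with 754. Jwa at 119 bp had 711, Asator, a tau tubulin kinase family member on the fourth chromosome, had 693 at 671 bp, stx (stuxnet) had 669 at 131 bp and lncRNA:CR45939 had 631 at 246 bp. In each replicate's own list the summit at these 10 lay more than 100 bp from the nearest TSS, except that of rut in replicate 2, which lay 98 bp from it. Of the 10, 5 held the DRE core: bun, Nrg, rut, stx and lncRNA:CR45939.

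The strongest downstream summit lay inside snRNA:7SKa, the gene of the 7SK RNA that holds P-TEFb inactive, 175 bp from its start with a signal of 969 (536 and 396). Adf1, a MADF-domain transcription factor, had one in its intron at 800 bp with 899 (552 and 348). Ptpmeg2, a tyrosine phosphatase, had 578 at 156 bp in its 5′ UTR, zf30C, a zinc finger protein, had 545 at 758 bp, and Sik3, a salt-inducible kinase, had 491 at 185 bp. The zinc finger protein gene woc had 408 at 540 bp, and stwl (stonewall, needed for germline stem cells) had 344 at 407 bp. lncRNA:CR43838 had 336 at 241 bp, milt had 332 at 148 bp downstream of another of its TSSs, and Stt3A, the catalytic subunit of an oligosaccharyltransferase, had 318 at 618 bp. Replicate 1 was above replicate 2 at each of these 20 summits, and 6 of the 10 downstream summits were in an intron.

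The genes of 15 functional lists were read by their nearest displaced summit, beside 802 of 13968 protein-coding genes with one (5.74%) and 2735 with a TSS-proximal one. Of coding genes with either kind, 24.3% had a displaced summit. The lists are described by counts without a test, and the choice of lists was made with earlier results of these data known. Cytosolic ribosomal protein genes had a displaced summit at 14 of 93 and a TSS-proximal one at 44, so 25.9% of those with either had a displaced one. RpS10b had a signal of 398 at 217 bp upstream and RpS25 had 298 at 103 bp upstream, both with the DRE core at the summit. At RpS4, RpL31 and RpL29 the downstream summit had 41.7, 27.0 and 9.26, below the matched peak of each replicate, and each gene also had a TSS-proximal summit. Mitochondrial ribosomal protein genes had 3 of 73 (mRpL39 with 314 and mRpL32 with 147, both just over 100 bp upstream), proteasome genes 2 of 32 (Prosalpha5 with 91.2 and Rpn11 with 82.3) and translation initiation factors 1 of 44, eIF1A with 311 at 105 bp upstream. Among genes with either kind, the displaced share in these last 3 lists was 12%, 10% and 8.33%.

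Segmentation genes had displaced summits at 5 of 26 and TSS-proximal ones at 2, with odd, a pair-rule gene, at 194 (125 bp downstream), ems, a head gap gene, at 129 (145 bp upstream), and bcd, en and oc between 71.6 and 97.0. Of 8 Hox genes, abd-A had a displaced summit (337 at 154 bp upstream, 276 in replicate 1 and 57.9 in replicate 2) and 0 had a TSS-proximal one. Proneural and neural identity genes had 3 of 18 displaced, led by L (Lobe) at 141 and elav, the pan-neuronal RNA-binding protein, at 108, and 2 with a TSS-proximal summit. The remaining neural gene, pros, had 15.8 at 184 bp downstream, below the matched peak of each replicate (54.7 and 34.3). It also had a TSS-proximal summit. Ecdysone response genes had 3 of 12, led by usp, the partner of the ecdysone receptor, at 164 and Eip75B, a nuclear receptor, at 159. In these 4 lists more genes had a displaced than a TSS-proximal summit in all but the ecdysone list, where 4 had a TSS-proximal one, and no list was set against another. These counts are small, and over all coding genes 802 had a displaced and 2735 a TSS-proximal summit. Among genes with either kind, the displaced share was 71.4% of 7 segmentation genes and 100% of 1 Hox gene. That share was 75% of 4 neural and 42.9% of 7 ecdysone genes, beside 24.3% over all coding genes.

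Of the 802 coding genes with a displaced summit, 231 also had a TSS-proximal one. Notch pathway genes had 3 of 18 displaced and 12 TSS-proximal, with N, the receptor, at 333 (166 bp upstream) and mam, its coactivator, at 175, and all 3 also had a TSS-proximal summit, as did 3 of the 4 Dpp, 1 of the 2 Wnt and 1 of the 4 EGFR pathway genes with a displaced one. The remaining Notch gene, numb, had 10.1 at 181 bp downstream, below the matched peak of each replicate (60.8 and 45.4). Wnt pathway genes had 2 of 16 and 10, with sgg, the GSK-3 kinase, at 253 and pygo at 127. Dpp pathway genes had 4 of 14 and 7, with shn, a zinc finger corepressor, at 198 and tkv, a type I receptor, at 124. EGFR pathway genes had 4 of 17 and 5, with Egfr, the receptor, at 199 and pnt, the ETS activator, at 163.

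Polycomb and trithorax genes had 5 of 19 and 7 TSS-proximal, 3 of the 5 downstream, with Su(z)12, a subunit of Polycomb repressive complex 2, at 186 and Trl, the GAGA factor, at 119, both downstream. Insulator and core promoter factors, a list that shares Trl and its summit with the one before, had 6 of 19 and 10, all 6 displaced ones downstream, where 320 of all 931 displaced summits lay downstream. BEAF-32 had 280 at 379 bp in its intron, with the DRE core at the summit, and Dref, which encodes the factor that binds the DRE, had 224 just over 100 bp downstream in its 5′ UTR without it. Among the Runt domain genes and Bgb, 1 of 7 had a displaced summit, Bgb itself, with 327 at 142 bp upstream (175 and 148 in replicates 1 and 2) beside a TSS-proximal summit. Bgb is the gene whose tagged copy the strain carries.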

How the data were processed

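Bgb-eGFP ChIP-seq peak lists on the dm6 assembly were used as deposited: a conservative and a second IDR-thresholded list of the series, a ranked list without a threshold, and a thresholded and a ranked list of each of the 2 replicates. Which aligner, peak caller or scaling was used is not stated in these sources. The signal of each peak is the authors' deposited value, used only to describe and rank peaks, and the deposited −log10 q values were not used. The ranked list's −log10 IDR, as deposited, marked peaks with an IDR above 5%.

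Summits were taken from the start and summit offset of each peak and set against 23697 transcript 5′ ends of Ensembl release 115 (BDGP6), transposable elements left out. Motifs and 6-mers were searched on both strands within 50 bp on either side of the summit. Displaced and TSS-proximal summits were compared by two-sided Fisher's exact tests with Benjamini-Hochberg adjustment over 12 motifs or 2080 6-mers, in Python 3.11.15 with scipy 1.17.1, and intervals are exact (Clopper-Pearson, 95%). Peaks are not independent replicates, and both libraries enter every peak of the conservative list. The motif and 6-mer tests were checked on simulated random sequence with equal base frequencies, which does not copy the base composition of these windows. The genes named are the nearest genes of the 10 strongest displaced summits on each side, and the 2 genes of each list with the strongest displaced summit. A few others were named after their values were seen. The members, lists and motifs were chosen with earlier results of these data known.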

Additional observations from a re-analysis of the deposited data

How the results depend on the processing

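Of 263 recomputed values 197 kept their direction and side of the threshold or stayed within their margin, and so did 62 of a further 78 under alternatives chosen after seeing the data (the weaker peaks, summits away from TSS-proximal ones, and summits of the same class in both replicates). The DRE core, TATCGATA, the signal and the number of TSSs per gene kept their call under each alternative run on them. The overlap of a replicate's own list with itself, and the coding share with coding TSSs only, were not run, since the construction fixes them. No paired analysis was possible because there is 1 group. Values below are percentage points, displaced minus TSS-proximal, unless named otherwise, and the cause was not tested.

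The displaced share of promoter summits was 30.1% in the second list, 21.9 to 29.2% in the lists of single replicates, 15.2% above the median signal and 32.5% below it, 28.2% with gene 5′ ends, 24.8% with coding TSSs only, 47.7% and 12.5% with limits of 50 and 200 bp, 18.7% with an outer limit of 500 bp, 21.0% without summits within 300 bp of a TSS-proximal one and 19.4% for summits of the same class in both replicates. The upstream share over those lists was 56.6% in the second list, 57.7 to 70.0% in single replicates, 84.1% above the median signal, 56.2% below it, 53.3% with gene 5′ ends and 69.9% with the same class in both replicates. The share with a TSS-proximal peak at the same TSS was 22.6% in the second list, 13.0 to 26.5% in single replicates, 4.13% above the median signal, 14.4% below it, 5.81% and 25.4% with limits of 50 and 200 bp, 16.6% with the outer limit of 500 bp, 8.57% without summits within 300 bp of a TSS-proximal one and 13.5% with the same class in both replicates. For this share, the values above and below the median counted only TSS-proximal peaks on the same side of the median. They are therefore not shares over the full list.

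More frequent 6-mers numbered 245 in the second list, 74 to 197 in single replicates, 50 above the median signal, 30 below it, 62 with gene 5′ ends, 61 with the limit of 200 bp, 79 with the outer limit of 500 bp and 61 in windows of 25 bp on either side. Less frequent ones numbered 196, 84 to 154, 47, 41, 66, 53 with the limit of 200 bp and 71 in windows of 25 bp on either side. The median GC share was 47.5% in the second list and 39.6% above the median signal.

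TATAAA lost its call in the second list (1.14), with the limit of 200 bp (2.27), in windows of 100 bp on either side (2.27) and below the median signal (2.36), and was 0.59 to 7.08 in single replicates. CAGCTG lost it in windows of 25 bp (-1.65), GAGAG below the median signal (3.78) and GGTCACAC above it (-2.73). The gene body difference lost its call above (3.51) and below (2.34) the median signal and with the limit of 50 bp (2.10). The replicate 1 overlap lost it above the median signal (-0.29), and the replicate 2 overlap above (-0.19) and below it (-0.74). RACCRCA passed the threshold in the second list (-1.67) and with the limit of 50 bp (-1.72), and was -1.94 to -0.55 in single replicates. CATATG passed it in windows of 100 bp (2.27) and was 0.43 to 1.78 in single replicates.

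The coding share passed the threshold in the second list (-3.23), with the limit of 200 bp (-4.09) and with the same class in both replicates (-2.33), changed sign above the median signal (1.21) and with the outer limit of 500 bp (0.16), and was -3.82 to 0.56 in single replicates. Uncalled motifs changed sign as well: CACGTG in the second list (-0.10), with limits of 50 bp (-0.36) and 500 bp (-0.55), in windows of 100 bp (-0.88), below the median signal (-0.022) and in single replicates (-0.38 to 0.67), CAGGTAG in single replicates (-0.039 to 0.23), TGANTCA with the limit of 50 bp (0.16) and in windows of 100 bp (0.38), and WGATAA in windows of 25 bp (-0.15).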

Other observations

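Several displaced summits shared a gene. Of 868 nearest genes, 814 had 1 displaced summit, 46 had 2, 7 had 3 and 1 had 4. The 8 genes with 3 or 4 were picked by that count after their values were seen. Eip75B, a nuclear receptor gene induced by ecdysone with 7 annotated TSSs, had displaced summits at 4 of its start sites, 3 of them downstream in a 5′ UTR, with signals of 159, 141, 122 and 85.9. The zinc finger factor gene chn (charlatan) had 3, with signals of 237, 114.9 and 82.7 at 646 bp upstream, 127 bp upstream and 671 bp downstream. The HMG protein gene HmgZ had 3 with 171, 72.1 and 66.2, all upstream, and cnc (cap-n-collar, the fly counterpart of Nrf2, with 10 annotated TSSs) had 3 with 104, 73.5 and 59.1, all upstream in introns. CG5953 had 3 with 178, 76.2 and 17.0, Nhe3 had 3 with 132, 88.2 and 52.2, Reph had 3 with 101.1, 87.2 and 73.7, and lncRNA:CR44619 had 3 with 89.1, 40.1 and 2.52. At Eip75B, HmgZ and cnc, 0 of these summits held the DRE core, as at CG5953, Reph and lncRNA:CR44619, while at chn 2 of 3 and at Nhe3 1 of 3 did.

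Small RNA genes were nearest to some displaced summits: 6 with tRNA, 4 with snoRNA and 3 with snRNA genes. A tRNA gene was nearest to 0.644% of displaced and 4.45% of TSS-proximal summits. For snoRNA genes these shares were 0.43% and 0.297%, and for snRNA genes 0.322% and 0.165%. Of these kinds, only tRNA genes thus had the lower share in the displaced class, untested. Apart from snRNA:7SKa, the strongest displaced summit nearest to a small RNA gene was upstream of snoRNA:Or-aca4, with a signal of 269, inside an annotated 3′ UTR. Genes of other noncoding RNAs were nearest to 53 displaced and 54 TSS-proximal summits, which is 5.69% and 1.78% of each class.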
